A study of Mus musculus with 6 samples.

Results

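Expression of 7 genes for the lipid chemistry of myelin was followed in coronal brain sections of male mice from weaning to old age. The genes, Fa2h, Ugt8a, Gal3st1, Cers2, Elovl1, Elovl7 and Aspa, were taken by their symbols from the 19465 genes of the probe panel, and each was found once in all 6 sections. Formalin-fixed paraffin-embedded brain of untreated C57BL/6J males was profiled on Visium slides, whose spots cover small areas that can hold several cells of different types. There were 2 sections, labelled as biological replicates, at postnatal day 21 (P21), 2 from adults of 12 to 15 weeks and 2 from aged mice of 28 months. The adult sections served as the reference for both other ages, so both comparisons share them. Version 1 slides received the P21 and adult sections by direct placement, whereas aged sections were transferred with a CytAssist instrument to version 2 slides, for which the study's methods describe a revised probe design. Age, slide chemistry and probe design therefore cannot be told apart in aged vs. adult.

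Myelin owes much of its mass to galactosylceramide and its sulfated form, sulfatide. In oligodendrocytes, the cells that make myelin in the brain, fatty acids are lengthened to very long chains and in part hydroxylated. They are joined to a sphingoid base to form ceramide, which is then capped with galactose and sulfate. Elovl1 and Elovl7 encode elongases of long fatty acids, Cers2 the ceramide synthase that prefers very long acyl chains, Fa2h the fatty acid 2-hydroxylase, Ugt8a the galactosyltransferase that makes galactosylceramide, and Gal3st1 the sulfotransferase that makes sulfatide. Aspa encodes aspartoacylase, which splits N-acetylaspartate from neurons into aspartate and acetate, a building block for myelin lipids.

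On GRCm38 (GENCODE vM21) the 7 protein-coding genes lie apart except for a pair on chromosome 3 and a pair on chromosome 11. Ugt8a (ENSMUSG00000032854) spans 125865271 to 125938619 on the minus strand of chromosome 3, and Cers2 (ENSMUSG00000015714) spans 95314791 to 95323599 on the plus strand of the same chromosome. Gal3st1 (ENSMUSG00000049721) spans 3983636 to 3999326 on the plus strand of chromosome 11, where Aspa (ENSMUSG00000020774) spans 73304992 to 73329596 on the minus strand. Fa2h (ENSMUSG00000033579) is on the minus strand of chromosome 8 from 111345135 to 111393824, Elovl1 (ENSMUSG00000006390) on the plus strand of chromosome 4 from 118428093 to 118432953, and Elovl7 (ENSMUSG00000021696) on the plus strand of chromosome 13 from 108214404 to 108285683.

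The promoters of Ugt8a and Aspa are printed because their P21 values lay on opposite sides of the adult ones. Each is the 250 bases before a RefSeq start on GRCm38.p6, read 5′ to 3′ on the gene's strand, with every CG dinucleotide in capitals. The Ugt8a window is chr3:125938653-125938902 and the Aspa window chr11:73324638-73324887, which lies inside the longer GENCODE span of Aspa.
Ugt8a: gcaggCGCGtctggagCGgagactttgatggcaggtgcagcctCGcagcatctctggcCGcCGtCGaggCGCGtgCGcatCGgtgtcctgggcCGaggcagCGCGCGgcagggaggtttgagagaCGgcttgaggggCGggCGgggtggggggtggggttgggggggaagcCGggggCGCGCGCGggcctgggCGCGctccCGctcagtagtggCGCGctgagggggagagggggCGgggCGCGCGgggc
Aspa: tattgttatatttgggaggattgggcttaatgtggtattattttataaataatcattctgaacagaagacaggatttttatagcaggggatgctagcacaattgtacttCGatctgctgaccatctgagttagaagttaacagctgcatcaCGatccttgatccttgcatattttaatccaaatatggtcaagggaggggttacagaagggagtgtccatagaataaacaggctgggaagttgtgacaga
The Ugt8a window held 32 CG dinucleotides and 76.8% G and C, and the Aspa window held 2 and 38.8%. Over 32841 promoter windows of the same length the medians were 6 and 52.4%, and 92.1% of windows held at least 1 CG. At least 32 were found in 4.59% of windows, and 2 or fewer in 29.0%. RefSeq windows were matched for 6 of the 7 genes, 10 windows in all. The first windows of Cers2, Elovl1, Gal3st1 and Elovl7 held 24, 18, 11 and 25 CG dinucleotides. Both strands were also searched for ACAAAG and ACAATG, letters that SOX factors bind, and for CTGGNAC, a motif of the myelin regulator MYRF. These occur in 16.5%, 10.7% and 16.1% of all windows. Among the 10 windows, ACAATG was found in both overlapping Gal3st1 windows at the upstream start, where it is the same stretch of DNA, and no other match was found. No match says only that these letters are not in these windows.

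The spots kept per section numbered 2917 to 3679, with medians of 12074.5 to 25535 UMIs (unique molecular identifiers, which count captured molecules), and the P21 sections differed most in depth, at 23543.5 and 12074.5. Spots were grouped into fiber tracts (FT), striatum (STR), cortex (CTX), hypothalamus (HY), thalamus (TH) and hippocampus (HP) by clustering from which the 7 genes and the structural myelin genes were kept out. The FT cluster was led by C4b, Klk6, Apod and Trf and contained between 294 and 421 spots per section, and it was named from a panel of 10 genes, among them Mbp and Mobp, all raised there, so that a high level of myelin genes in it follows in part from its name. It took 8.17% and 9.38% of the spots of P21 sections, 10.8% and 11.5% of adult ones and 11.4% and 10.4% of aged ones, and in the same order 8.49% and 8.26%, 10.7% and 11.3%, and 5.89% and 4.90% of the UMIs. The part of this share in values of whole sections was not tested, and section outlines differed between mice. Summed UMIs of a section or region are given as CPM (UMIs scaled to a common library total) with TMM factors unless another scale is named. The factors of these CPM came from a wider set of genes than the genes tested. Log2 ratios of printed CPM can therefore differ from the tested log2 fold changes. In such sums fewer oligodendrocytes and less RNA per oligodendrocyte cannot be told apart. Each gene has its own probes, so levels are compared between sections and regions but not between genes.

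All 7 genes were highest in the FT in 6 of 6 sections. Spots with at least 1 Fa2h UMI made up 95.0% to 100% of the FT and 48.3% to 89.4% of the CTX, and for Aspa these shares were 67.5% to 92.7% and 17.7% to 48.4%. These shares also move with the depth of a section. By CPM on library sizes alone, the FT level of Fa2h was 3.78 to 7.69 times the mean of the other 5 regions (median 4.96 over 6 sections). The median was 4.82 times for Ugt8a, 4.41 for Elovl7, 4.33 for Aspa, 4.11 for Gal3st1, 3.48 for Elovl1 and 3.47 for Cers2, beside 4.61 for Mbp, a main protein of compact myelin. The ratio of Fa2h was 3.78 and 4.93 in P21 sections, 4.70 and 4.99 in adult ones and 7.69 and 6.81 in aged ones. For Aspa it was 3.44 and 4.04, then 4.23 and 4.42, then 8.23 and 6.64, so both aged sections lay above all others. The lowest region was the CTX or the HP for all 7 genes in every section, and the order of TH, HY and STR varied from section to section. Fa2h in the adult FT was at 448 and 468 CPM. The adult TH had 124 and 133 CPM of Fa2h, the HY 125 and 121 and the STR 116 and 102, and the HP and CTX had 60.6 and 66.4 and 58.9 and 58.2. Among these the TH and HY overlapped, while the FT stood apart from all other regions. No test is given for regions within a section, since they were drawn from the same spots.

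**Figure D1:**
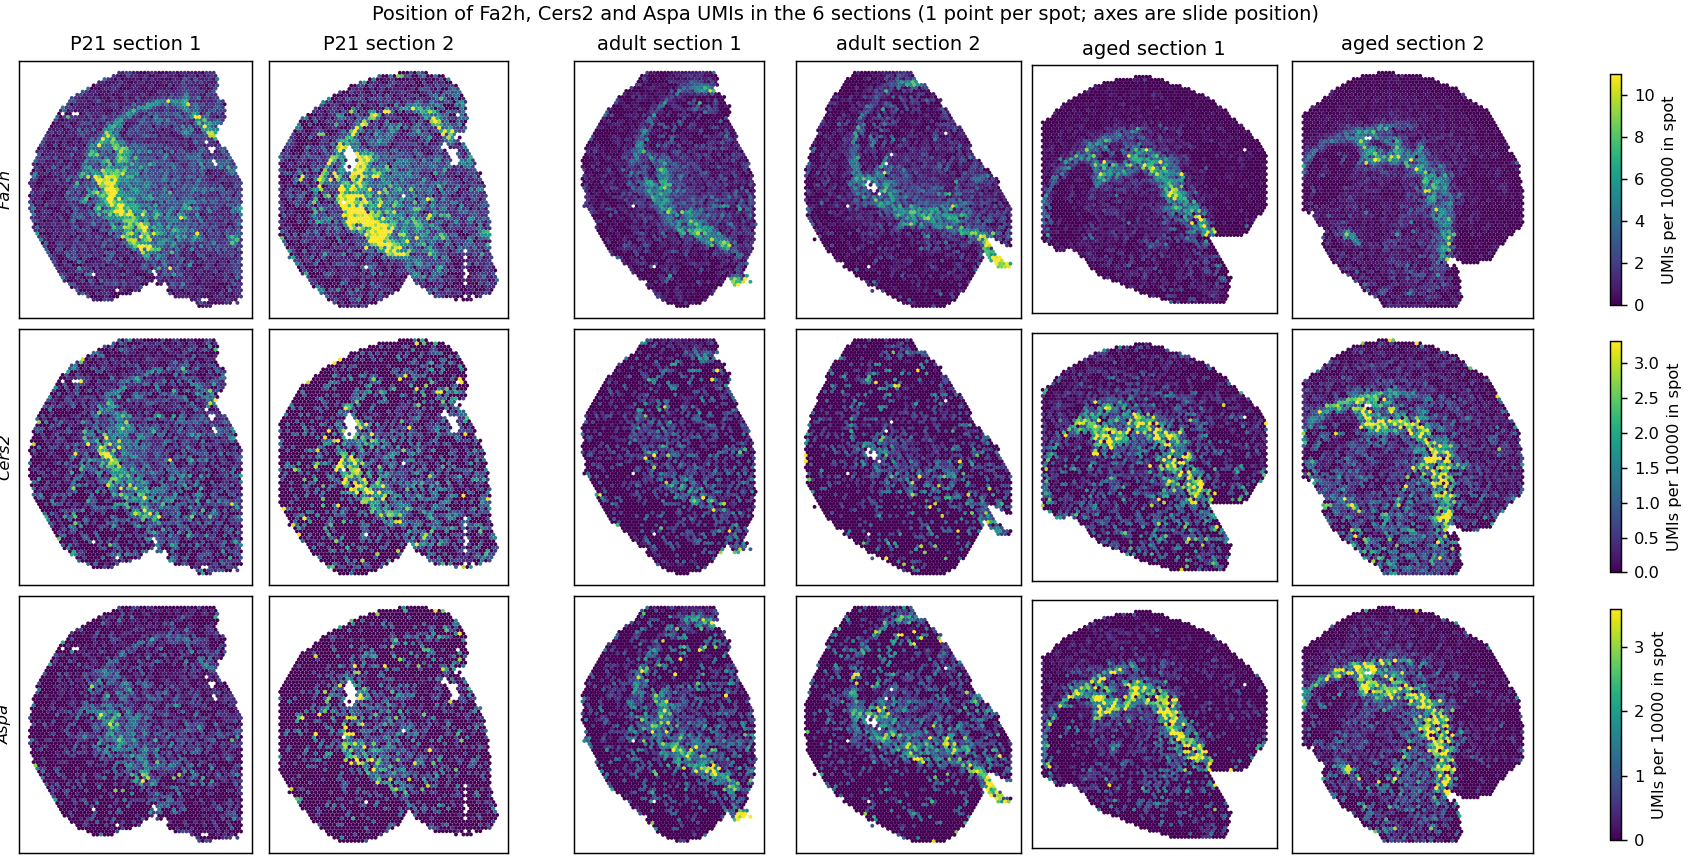
Slide position of Fa2h (top), Cers2 (middle) and Aspa (bottom) UMIs in the 6 sections, 1 point per spot, coloured by UMIs per 10000 UMIs of the spot, with the colour scale of each gene capped at its 99th percentile. Fa2h outlines the tracts in every section, while Cers2 is faint in the tracts of both adult sections, where its FT level was 76.8 and 69.4 CPM.

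Space Ranger's Moran's I, a score of how far neighbouring spots resemble each other, was deposited for the same genes. Fa2h had values of 0.434 to 0.550 and ranks between 99 and 336 among the genes listed in a section. Ugt8a had 0.358 to 0.489, and Elovl1 ranged from 0.0823 in an adult section to 0.236 at P21. Aspa had 0.237 and 0.165 in P21 sections, 0.277 and 0.285 in adult ones and 0.439 and 0.443 in aged ones, and Cers2 had 0.213 and 0.166, 0.108 and 0.106, and 0.306 and 0.327. Ranks moved otherwise. The share of listed genes ranked above Aspa was 4.6% and 5.0% (P21), 2.4% and 2.3% (adult), and 3.0% and 3.6% (aged). Aspa thus ranked best in adult sections, although its score was highest in aged ones. For Cers2 the share was 5.4% and 5.0% (P21), 10.9% and 10.4% (adult), and 6.3% and 6.8% (aged). Cers2 thus ranked best in P21 sections. The part of depth, level and slide chemistry in these scores and ranks was not tested.

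P21 was compared with adult to see how the pathway stood while myelin is being laid down. Of the 7 genes, 6 were called higher at P21 in the whole section and in each of the 6 regions, and Aspa was the exception. A call needed both a fold change above 1.5 and, in edgeR's quasi-likelihood test, an adjusted p below 0.05. Of all genes tested, 3.41% were called higher in the whole section and 5.32% in the FT. The HP had 5.31%, the TH 4.36%, the CTX 3.65%, the STR 2.89% and the HY 2.25%. The median log2 fold change of the 7 genes was 1.03 in the whole section and 1.12 in the FT, and that of all genes tested was -0.0013 and -0.0084.

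Ugt8a, at the step that commits ceramide to galactosylceramide, showed the largest change of the 7 at P21 in the whole section. P21 sections had 276 and 299 CPM of Ugt8a, adult sections 92.6 and 102, and aged sections 52.1 and 44.8. All 3 ages were separate, in falling order. The log2 fold change at P21 was 1.59 (standard error 0.08, adjusted p = 1.09e-05), and it was highest in the STR at 1.98 (0.11, adjusted p = 1.71e-09) and lowest in the HY at 1.23 (0.08, adjusted p = 0.000248). The FT mean of Ugt8a was 1029 ± 182 CPM for P21 and 315 ± 26.7 for adult sections (SD, n = 2).

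Gal3st1 acts on the product of Ugt8a, and its P21 sections had 80.4 and 80.0 CPM, adult sections 31.8 and 32.5 and aged sections 17.9 and 15.3. Its log2 fold change at P21 was 1.34 in the whole section (standard error 0.08, adjusted p = 1.7e-05) and ranged over regions from 1.12 (HY) to 1.82 (HP). For Fa2h these values were 249 and 290, 130 and 139, and 66.6 and 61.3 CPM. Both genes thus kept the same order of ages as Ugt8a. Fa2h rose by 1.03 at P21 on the log2 scale (0.08, adjusted p = 6.45e-05), with extremes of 1.48 (HP) and 0.83 (HY) over regions.

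The genes that lengthen the acyl chain and build ceramide rose at P21 as well. Elovl1 had 63.4 and 62.9 CPM in P21 sections, 27.0 and 25.6 in adult ones and 20.1 and 21.8 in aged ones, a log2 fold change of 1.29 at P21 (standard error 0.07, adjusted p = 1.04e-05) that reached 1.75 in the FT. Elovl7 had 67.5 and 76.3, 44.6 and 39.7, and 33.8 and 27.3 CPM in the same order of ages. Its change at P21 was 0.79 (0.11, adjusted p = 0.00125). Cers2 had 56.9 and 53.8, 31.7 and 30.4, and 40.4 and 42.6 CPM, so that its lowest values were the adult ones, while those of Elovl1 and Elovl7 were the aged ones. It rose by 0.86 at P21 (0.07, adjusted p = 5.93e-05).

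Aspa went the other way. Its whole-section level was 38.6 and 38.1 CPM at P21 and 50.5 and 50.6 in adults, a log2 fold change of -0.38 (standard error 0.07, adjusted p = 0.00649) that passed the p limit and missed the fold limit. In the FT its level was 115 and 126 CPM at P21 against 159 and 156 in adults (-0.40, 0.09, adjusted p = 0.0034). In neither sum did P21 and adult sections overlap. In the HP, by contrast, its values at P21 and in adults overlapped, at 26.3 and 24.7 against 24.3 and 25.8 CPM (0.05, 0.13, adjusted p = 0.861).

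**Figure D2:**
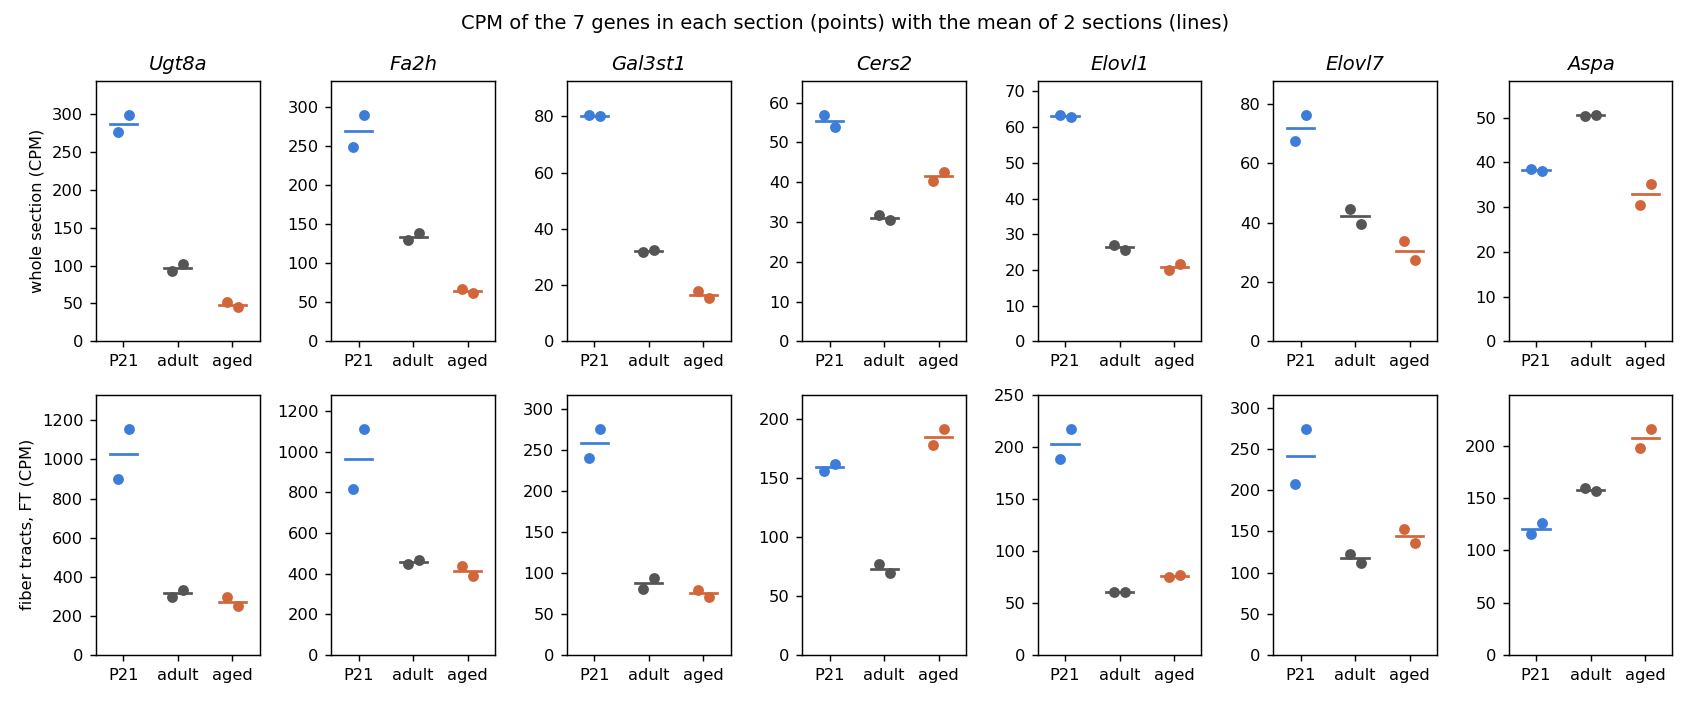
CPM (linear axes from 0) of the 7 genes in the whole section (top) and the FT (bottom) by age (P21, adult, aged), with 1 point per section and a line at the mean of 2 sections. For 6 genes the P21 points lie above the adult ones in both rows, and for Aspa they lie below, at 38.6 and 38.1 CPM against 50.5 and 50.6 in the whole section.

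Other oligodendrocyte genes moved at P21 too. All 8 structural myelin genes, among them Mbp, Mobp, Mag and Mog, were called higher in the whole section, with a median log2 fold change of 1.22, and their summed level was 26314 and 27428 CPM at P21 against 13164 and 12931 in adults. Of 6 oligodendrocyte precursor markers 3 were called higher, with sums of 527 and 526 CPM against 353 and 354, and of 6 markers of newly formed oligodendrocytes, 5 of them tested, 3 were called higher, with sums of 428 and 463 against 317 and 318. The last list shares Tcf7l2 with the panel that named the TH. The TH took 18.5% and 18.6% of the spots at P21 against 15.0% and 15.6% in adults, and its part in that sum was not tested. Red blood cell genes, 4 found and 3 tested, were all 3 higher, at 2321 and 1312 against 326 and 171 CPM. No gene of these lists was at 0. Their part in the changes of the 7 genes was not tested.

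Set against structural myelin, the 7 genes separated. Each gene's UMIs per 1000 UMIs of the 8 structural genes are given as a description with no test. Fa2h gave 9.48 and 10.6 at P21 and 9.86 and 10.8 in adults in the whole section, and over the 6 regions P21 means were 0.923 to 1.03 times adult means. Ugt8a gave 10.5 and 10.9 at P21 and 7.04 and 7.88 in adults, with ratios between 1.36 and 1.53. Aspa gave 1.47 and 1.39 at P21 and 3.83 and 3.91 in adults, with ratios between 0.349 and 0.382. Ugt8a thus stood higher at P21 and Aspa lower in every region, whereas Fa2h overlapped between P21 and adult in 5 regions and lay below adult values in the STR, at 9.66 and 9.46 against 10.05 and 10.65. The ranges over regions reached up to 1.35 for Gal3st1, and were 0.956 to 1.54 for Elovl1, 0.794 to 0.936 for Elovl7 and 0.594 to 0.997 for Cers2.

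**Figure D3:**
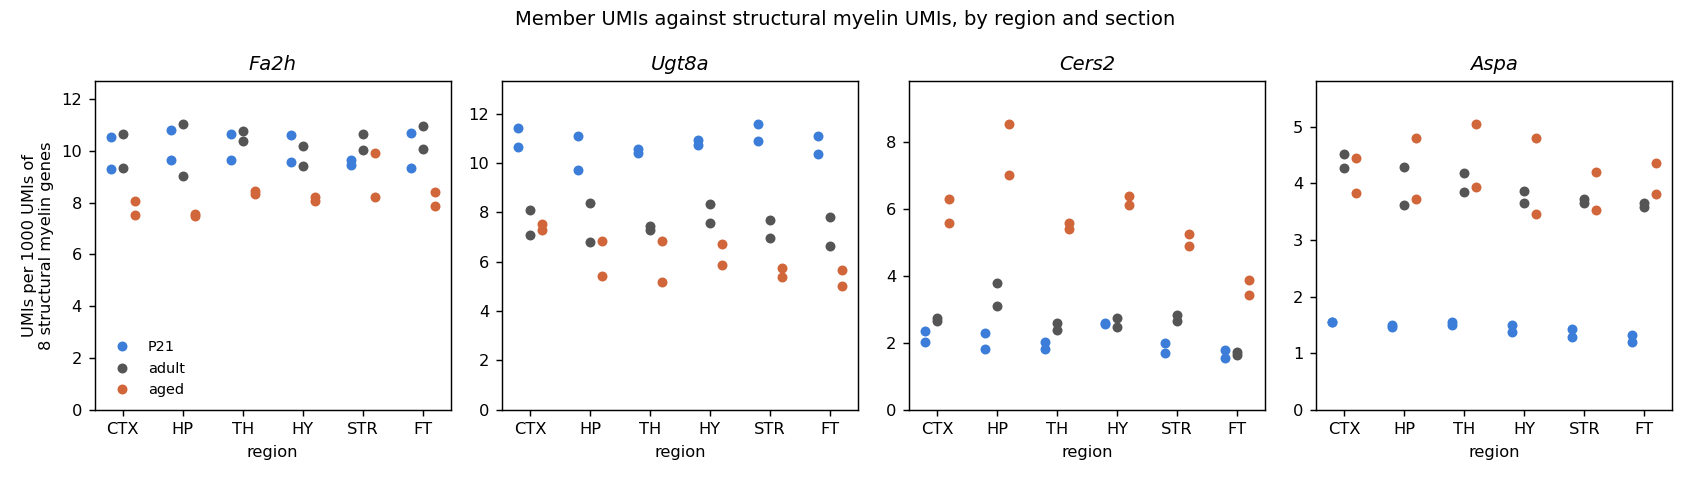
UMIs of Fa2h, Ugt8a, Cers2 and Aspa per 1000 UMIs of 8 structural myelin genes (linear axes from 0) in 6 regions, with 1 point per section and colours for age. Aspa points of P21 lie below all others in every region, and the aged Cers2 points lie above all others in every region.

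A region-by-age test, in which each section was a block, asked whether the P21 difference varied between regions. It was called for 2 of the 7 genes, Ugt8a (adjusted p = 0.0226) and Elovl1 (adjusted p = 0.0332), beside 12.8% of all genes tested. The log2 difference of Ugt8a was 0.48 smaller in the HY than in the CTX (-0.48), and that of Elovl1 was 0.59 larger in the FT. Neither was called when any 1 P21 or adult section was left out, a fit that leaves 1 section in a group. Without P21 section 2, Fa2h was called instead, and without either aged section more of the 7 genes were called. Calls over all genes tested also became fewer without a P21 or adult section and more frequent without an aged one.

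Several regional calls at P21 were lost when 1 section was left out, a fit that leaves 1 section in a group. In the HY, Fa2h, Elovl1, Cers2 and Elovl7 missed the p limit whichever P21 section was left out, while their log2 fold changes moved little. These were 0.83 for Fa2h with all sections, and 0.90 and 0.75 without P21 section 1 and section 2. In the same order Elovl1 gave 1.03, 1.05 and 1.02, Cers2 0.77, 0.77 and 0.78, and Elovl7 0.65, 0.66 and 0.65. Gal3st1 (1.12) missed the limit there without P21 section 1 (1.04). Without adult section 1, Cers2 (0.78) and Elovl7 (0.78) missed the limit there, and without adult section 2, Elovl7 did (0.53). Cers2 in the HP was 0.46 (adjusted p = 0.316) without P21 section 1 and 0.52 (0.249) without adult section 2, and in the STR 0.49 (0.338) and 0.78 (0.0629). Elovl7 in the STR missed the limit without P21 section 1 (adjusted p = 0.116). The HY change of Aspa, -0.61, became a call without either aged section (adjusted p = 0.0069 and 0.00648).

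**Figure D4:**
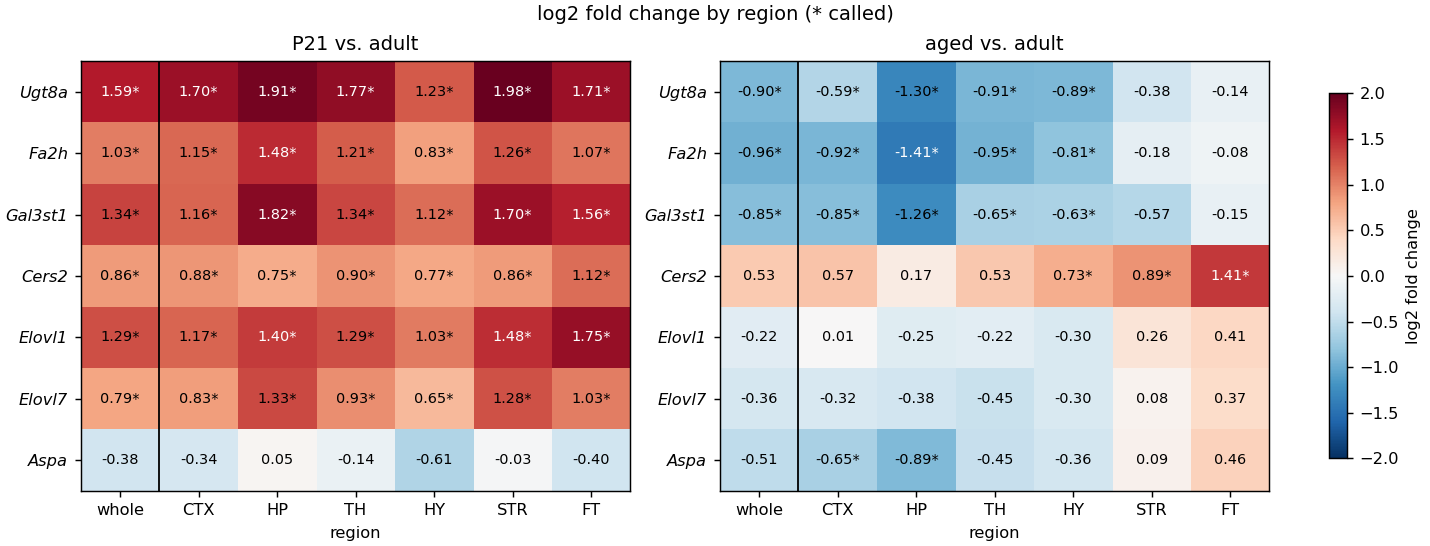
log2 fold change (colour and number) of the 7 genes in the whole section and 6 regions, for P21 vs. adult (left) and aged vs. adult (right), with an asterisk where a gene was called. At P21 the top 6 genes are called in every column. In aged mice Ugt8a, Fa2h and Gal3st1 are called lower in the CTX, HP, TH and HY, and Cers2 is called higher in the HY, STR and FT.

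Aged was compared with adult to see how the same genes stood late in life. In the whole section, Fa2h, Ugt8a and Gal3st1 were called lower, 3 of the 7 genes, beside 2.85% of all genes tested. Fa2h fell by 0.96 on the log2 scale (standard error 0.08, adjusted p = 6.21e-05), Ugt8a by 0.90 (0.08, adjusted p = 9.28e-05) and Gal3st1 by 0.85 (0.08, adjusted p = 9.28e-05). Aspa, at 30.6 and 35.3 CPM against 50.5 and 50.6, passed the p limit alone (-0.51, 0.07, adjusted p = 0.000671). With the wider gene set that also scales the printed CPM (filterByExpr alone), Aspa was called (-0.62), as it was without aged section 2 (-0.62). Cers2 passed the p limit alone in the other direction (0.53, 0.07, adjusted p = 0.000321). Elovl1 and Elovl7 gave -0.22 (adjusted p = 0.0213) and -0.36 (adjusted p = 0.0253).

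With the main regions, the calls for lower levels lay in the CTX, HP, TH and HY. Fa2h was at 30.0 and 31.0 CPM in the aged CTX against 58.9 and 58.2 in adults, and at 26.4 and 22.0 in the aged HP against 60.6 and 66.4. In the FT it was at 436 and 390 CPM against 448 and 468, without overlap but by a log2 fold change of -0.08 (standard error 0.12, adjusted p = 0.592). Fa2h fell by 1.41 on the log2 scale in the HP, by 0.92 and 0.95 in the CTX and TH, and by 0.81 in the HY, while its STR value was -0.18 (adjusted p = 0.268). The HP sum mixes hippocampal layers whose shares differed between ages, as given below, and their part in the HP values was not tested. Ugt8a was at 24.0 and 15.8 CPM in the aged HP against 45.7 and 50.4 in adults, and at 294 and 249 in the aged FT against 296 and 333. It fell by 1.30 in the HP, by 0.59 and 0.91 in the CTX and TH, and by 0.89 in the HY, with -0.38 in the STR and -0.14 in the FT, both short of a call. Gal3st1 fell by 1.26 in the HP, by 0.85 and 0.65 in the CTX and TH, and by 0.63 in the HY, with -0.57 in the STR and -0.15 in the FT. These calls moved with how regions were drawn. In STR spots whose neighbours were all STR, Ugt8a (-0.60, adjusted p = 0.0108) and Gal3st1 (-0.93, adjusted p = 0.0123) were called lower. With regions from marker panels Gal3st1 was called lower in the STR (-0.63, adjusted p = 0.0113). Its HY call was lost with such core spots (-0.51) and with marker panels (-0.53). Among all genes tested, 12.3% were called lower in the FT and 7.42% in the TH. The STR had 6.18%, the HP 6.07%, the HY 4.74% and the CTX 3.96%.

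Cers2 rose in aged tracts. Its FT level was 178 and 192 CPM in aged mice, 76.8 and 69.4 in adults and 156 and 162 at P21, so that adult sections lay below both other ages. Against adults this was a log2 fold change of 1.41 (standard error 0.09, adjusted p = 3.64e-09). Cers2 was also called higher in the HY (0.73, 0.13, adjusted p = 0.0048) and the STR (0.89, 0.16, adjusted p = 0.000375), while it gave 0.57 in the CTX, 0.53 in the TH and 0.17 in the HP (adjusted p = 0.509). It was the 1 gene of the 7 called higher in each of these 3 regions, where the share of all genes tested that were called higher was 15.1% (FT), 7.28% (HY) and 8.09% (STR). In the whole section that share was 6.02%. Per 1000 structural UMIs, Cers2 gave 5.02 and 5.59 in aged whole sections against 2.41 and 2.35 in adults, and the ratio of means was between 1.84 and 2.40 in the 6 regions. In the HP the Cers2 level itself overlapped, at 24.7 and 24.7 CPM in aged mice against 25.4 and 18.6 in adults, so the ratio there also moves with the structural sum. The HP sum mixes layers in shares that differed between ages, and in some of these layers aged Cers2 lay above adults, as given below. For the shift of the ratio, which is present in all regions, age and probe design cannot be told apart.

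Aspa parted between tract and cortex. In the CTX it was at 15.3 and 17.1 CPM in aged mice against 26.9 and 24.7 in adults and was called lower (-0.65, standard error 0.11, adjusted p = 0.000788), as it was in the HP, at 13.1 and 13.9 against 24.3 and 25.8 (-0.89, 0.14, adjusted p = 0.00085). In the FT it was at 198 and 216 CPM against 159 and 156 in adults and 115 and 126 at P21, an order of ages without overlap. Its log2 fold change there was 0.46 (0.09, adjusted p = 0.000257), under the fold limit, and 0.62 in FT spots whose neighbours were all FT, where it was called. Elovl1 and Elovl7 were short of a call in the FT, at 74.9 and 77.3 CPM against 60.3 and 60.1 (0.41, adjusted p = 0.00248) and at 154 and 136 against 123 and 112 (0.37, adjusted p = 0.0138). With 7 genes counted in all regions, 17 of 42 gene-region pairs were called in aged vs. adult and 36 of 42 in P21 vs. adult. Of all genes tested in a region, the share called in either direction was 10.9% (CTX) to 27.4% (FT) in aged vs. adult. At P21 it was 3.99% (STR) to 9.44% (FT).

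The region-by-age test was called for 7 of the 7 genes in aged vs. adult, where 49.0% of all genes tested were called. Because each section is a block in that test, a factor that changes a gene alike in all regions of a section does not enter it. An effect of slide chemistry or probe design that differs between regions does enter it and cannot be told apart from age. The adjusted p, which covers all regions together, was 6.54e-06 for Aspa, 8.57e-06 for Fa2h, 2.49e-05 for Cers2, 0.000128 for Ugt8a, 0.00721 for Gal3st1, 0.0117 for Elovl1 and 0.0173 for Elovl7. Differences between single regions were not tested and are given as sizes. The log2 change in the FT minus that in the CTX was 1.09 for Aspa, 0.81 for Fa2h, 0.80 for Cers2, 0.67 for Gal3st1, 0.66 for Elovl7, 0.41 for Ugt8a and 0.37 for Elovl1. In the HP the change was below that in the CTX by 0.70 for Ugt8a (-0.70) and 0.47 for Fa2h (-0.47). The shares of hippocampal layers in the HP differed between ages, and their part in these sizes was not tested. When the FT was left out, 3 genes, Fa2h, Ugt8a and Aspa, were called, beside 25.2% of all genes tested. Without adult section 1 the call was lost for Gal3st1 (adjusted p = 0.167), Elovl1 (0.244) and Elovl7 (0.0906), without adult section 2 for Elovl1 (0.0641) and Elovl7 (0.178), and without aged section 2 for Gal3st1 (0.0510).

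Other cell markers moved in the aged FT beside these genes. Of 6 microglial markers 5 were called higher, with sums of 1193 and 1265 CPM against 424 and 462 in adults, and of 6 astrocyte markers 4 were, with 5189 and 5128 against 2403 and 2558. Of 6 neuronal markers 4 were called lower, with 2176 and 2187 against 4435 and 4226. The 8 structural myelin genes, 2 of them called higher, summed to 51847 and 49546 CPM against 44509 and 42648. In the aged whole section the structural sum was 8040 and 7618 against 13164 and 12931, with 5 of 8 genes called lower. In the aged CTX it was 3989 and 3845 against 6312 and 5469, again with 5 of 8 called lower, and in the aged HP it ranged from 2899 to 3520 against 6009 to 6719, with 8 of 8 called lower. No gene of these lists was at 0, and their part in the changes of the 7 genes was not tested. Per 1000 structural UMIs, Fa2h gave 8.28 and 8.05 in aged whole sections against 9.86 and 10.8 in adults, with ratios of 0.751 to 0.877 over regions. The ranges were 0.739 to 0.979 for Ugt8a, 0.651 to 0.975 for Gal3st1, 0.944 to 1.13 for Aspa, 1.06 to 1.53 for Elovl7 and 1.09 to 1.69 for Elovl1. Aspa per structural UMIs overlapped between aged and adult whole sections, at 3.80 and 4.63 against 3.83 and 3.91.

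Some calls of the aged comparison changed when 1 section was left out. In the CTX, Ugt8a gave -0.58 without adult section 1 and -0.55 without aged section 2, Aspa -0.58 without adult section 1 and -0.57 without aged section 1, and Cers2 became a call without adult section 1 (0.66) or aged section 1 (0.64). Gal3st1 in the TH missed the limits without adult section 1 (adjusted p = 0.0722), adult section 2 (0.0521) or aged section 2 (-0.37), and in the HY without adult section 1 (-0.42, adjusted p = 0.0950). In the STR it was called without adult section 1 (-0.74). Cers2 in the HY gave 0.53 without aged section 2. Elovl7 was called lower without aged section 1 in the HP (-0.75) and the TH (-0.61), and Aspa without aged section 2 in the TH (-0.65) and the HY (-0.83).

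Within the hippocampus, spots were divided again into CA1-2, CA3, dentate gyrus (DG) and the matrix, the spots outside the cell layers, which were named from a panel of astrocyte genes and numbered 113 to 283 per section. The matrix held 4660770 and 1973568 of 9865698 and 4222339 HP UMIs at P21. It held 2328917 and 2475358 of 6192410 and 7025543 in adults, and 1679613 and 1713562 of 7979277 and 10505185 in aged mice. Adult means of Fa2h were 115 CPM in the matrix and 32.0, 43.9 and 28.1 in CA1-2, CA3 and the DG. The part of these shares in the HP changes was not tested. In the matrix, 6 of the 7 genes, all but Aspa, were called higher at P21, beside 3.51% of all genes tested. Matrix Fa2h was 261 and 277 CPM in P21 sections, 106 and 123 in adult ones and 57.8 and 57.0 in aged ones, a log2 fold change of 1.22 at P21 (standard error 0.11, adjusted p = 1.57e-09) and of -1.01 in aged mice (0.14, adjusted p = 2.24e-06). In aged mice 3 of the 7, Fa2h, Ugt8a (-0.85) and Gal3st1 (-0.75), were called lower in the matrix, beside 7.50% of all genes tested. At P21, 4 of the 7 were called higher in CA1-2 (Ugt8a, Gal3st1, Elovl1 and Fa2h), 5 in CA3 (all but Cers2 and Aspa) and 5 in the DG (all but Elovl1 and Aspa), beside 1.72%, 2.42% and 6.43% of all genes tested. Aspa at P21 lay below adults in the matrix (35.9 and 39.6 against 46.7 and 52.9 CPM) and overlapped in CA1-2. It lay above adults in CA3 (18.7 and 19.4 against 15.1 and 14.7) and the DG (14.7 and 10.2 against 6.12 and 7.47), without a call. In aged mice Fa2h and Ugt8a were called lower in CA1-2, these and Gal3st1 in CA3, and Fa2h alone in the DG, beside 3.29%, 3.92% and 3.16%. In CA1-2, of 25 to 35 spots per section, Fa2h had 133 and 92.5 CPM in P21 sections, 29.0 and 34.9 in adult ones and 7.15 and 15.0 in aged ones, the same order of ages. Counts there were low for genes called at both ages. In aged sections Fa2h had 7 and 27 UMIs against 27 and 35 in adults, and Ugt8a had 8 and 20 against 20 and 25. Elovl1 had 41 and 7 UMIs at P21 against 10 and 3 in adults, and Gal3st1 had 46 and 17 against 11 and 3. In aged mice Cers2 lay above adults in the matrix, at 40.6 and 51.7 against 34.8 and 30.7 CPM. It also lay above in CA1-2 (24.5 and 22.2 against 15.1 and 12.0) and the DG (27.2 and 25.1 against 20.8 and 12.6). In CA3 it overlapped (15.8 and 13.4 against 23.0 and 11.3). Aged Aspa lay below adults in CA1-2, the matrix (33.2 and 39.9 against 46.7 and 52.9) and CA3 (8.39 and 10.7 against 15.1 and 14.7). It overlapped in the DG (9.84 and 6.42 against 6.12 and 7.47). The alternative settings were not run for these layers.

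A wider list of the pathway was examined in the same fits. Of 44 listed genes for ceramide synthesis, fatty acid elongation, other head groups, breakdown and N-acetylaspartate handling, 40 were found in the files. In the whole section at P21, 0 of 37 tested were called by edgeR (17 at an unadjusted p under 0.05) and 0 by DESeq2, with a median log2 fold change of 0.07. In the FT at P21, 4 of 37 were called higher, beside 5.32% of all genes tested, namely Acss2, which makes acetyl-CoA from acetate (0.90, adjusted p = 5.29e-06), Degs1, the desaturase that completes ceramide (0.75, adjusted p = 1.47e-05), and the chain-lengthening genes Hacd2 (0.70) and Elovl4 (0.68). In the aged FT, 7 of 37 were called higher, a share close to the 15.1% of all genes tested, with a median over the list of 0.14 against 0.03 for all genes tested. Among them were Hexa (1.69, adjusted p = 5.07e-09), which encodes a subunit of a lysosomal enzyme of ganglioside breakdown, Ormdl1 (1.06), a brake on sphingolipid synthesis, and the acid ceramidase Asah1 (0.74). The 1 gene called lower, beside 12.3% of all genes tested, was St3gal5 (-0.88, adjusted p = 6.89e-07), which starts ganglioside synthesis. In the aged whole section 3 of 38 were called higher, Hexa (0.82), Asah1 (0.62) and Elovl4 (0.59), and 2 lower, the dicarboxylate transporter Slc13a3 (-0.87) and Sptlc2 (-0.62), a subunit of serine palmitoyltransferase. Among all genes tested 6.02% were called higher and 2.85% lower there, so these counts lie near the background.

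Over 36 sums (6 sections in 6 regions), the genes whose log2 CPM followed each member most closely were taken from 11338 genes. For Fa2h they included Cnp (Pearson's r = 0.99) and Mog, for Ugt8a Tspan2 and Cnp, and for Gal3st1 Tspan2, Cnp and Mag. Elovl1 was nearest to Cldn11, Sirt2 and Gramd3, Elovl7 to Mal, Adamts4 and Mbp, and Aspa to Galnt6 (r = 0.99), Trf and Ermn. Cers2 had Hadh (r = 0.97), Tsc22d4 and Tfeb. Between the members, r ran from 0.68 for Ugt8a with Aspa to 0.99 for Ugt8a with Gal3st1. The sums of a section share a mouse, a library and its depth, and so no p is given.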

How the data were processed

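For each spot and gene the authors deposited UMI counts, not normalized, from Space Ranger on mm10. File headers give version 2.0.0 (P21, adult) and 3.1.1 (aged), and the submitters' processing notes 2.1.0, beside Seurat 5.1.0. The deposited Moran's I is a score made by the authors with Space Ranger. Members and lists were chosen with earlier results of these data known.

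Spots with under 250 genes or 500 UMIs were removed, leaving 20336. Values of 3000 variable genes, without 69 member, pathway and oligodendrocyte genes, were standardized per section, reduced to 10 principal components and clustered (20 neighbours, Leiden, resolution 0.3, 14 clusters). This resolution is the lowest at which CTX, HP, TH, HY, STR, FT, ventricular system and reticular thalamus were all named by marker panels. The last 2 were added to the rule after leading genes of a first clustering at 0.1 were seen, since its FT cluster held choroid plexus spots, and before any value of a member was read. Of all spots, 17.4% were in other clusters. Harmony integration and manual annotation were not repeated. Doublets do not apply to spots.

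UMIs were summed per section and region. edgeR 4.0.16 (R 4.3.3; TMM, glmQLFit, glmQLFTest) fitted all 6 sections with age as the only term. Genes passed filterByExpr, needed a UMI in more than 10% of a region's spots in 1 of the ages and in 10% of all spots, and all 7 members passed in every sum. P-values were adjusted over all genes of a region and comparison (Benjamini-Hochberg). The region-by-age F test used 36 sums with section as a block. Standard errors are the change divided by the root of F. FT ratios used plain CPM. Alternatives were library sizes alone, DESeq2 1.42.0, filterByExpr alone, glmTreat, only the 4 sections compared, a replicate block, each section left out, regions from marker panels, core spots and, for the region test, no FT. Scripts were tested on simulated data. Named genes are all members, for the pathway list at most 4 called genes per direction, and the 3 nearest genes per member. Some genes that these rules name are not reported here. Spot barcodes shared between sections are the slides' fixed grid, and the aged and other sections share 0. Sequences are from RefSeq (GRCm38.p6).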

Additional observations from a re-analysis of the deposited data

Results flagged for a closer look

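The change between ages differed between regions, by the interaction term of edgeR, for 2 of the 7 genes at P21 and for 7 in aged mice. At P21 the adjusted p was 0.0226 for Ugt8a and 0.0332 for Elovl1. In aged vs. adult it was 6.54e-06 for Aspa, 8.57e-06 for Fa2h, 2.49e-05 for Cers2, 0.000128 for Ugt8a, 0.00721 for Gal3st1, 0.0117 for Elovl1 and 0.0173 for Elovl7. The share of all genes with such a difference was 12.8% and 49.0%. The cause was not tested. Groups of 2 sections were not examined for outlying samples.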

How the results depend on the processing

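Whole-section counts of members called were 6 at P21 (5 with glmTreat) and 3 in aged mice (4 with filterByExpr alone or without aged section 2), and no value of a called member changed sign under any alternative run. Over 6 regions the 36 pairs at P21 went to between 28 and 37 when 1 section was left out and to 26 with glmTreat, and the 17 pairs in aged mice to between 15 and 19 and to 8 with glmTreat, which tests the fold limit itself. Region-by-age differences at P21 fell from 2 members to 1 with library sizes alone or without the FT, beside 13.9% and 6.76% of all genes tested. With regions from marker panels they fell to 0 (2 at an unadjusted p under 0.05 in edgeR), beside 10.7%. In aged mice they fell from 7 to 3 without the FT, beside 25.2%, and to 4 with marker panels, beside 36.2%. At both ages the members called also changed when 1 section was left out. The cause was not tested.

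For same-numbered sections of different ages, the correlation of deviations was 0.021 (P21 and adult), -0.044 (P21 and aged) and -0.175 (adult and aged). These correlations cannot show whether same-numbered sections share more than a number, such as a processing batch. With the replicate block, 6 and 3 members were called in the whole section and 35 and 17 pairs over regions. The crossed pairing of aged and adult sections, chosen after seeing the data, gave 3 members and 17 pairs.

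Counts over all genes moved more. In the whole section 579 genes at P21 became 1460 with filterByExpr alone and 161 with glmTreat, and 1004 in aged mice became 5148 and 257. In the CTX at P21, 602 became 949 with filterByExpr alone. With glmTreat, P21 counts became 119 of 602 (CTX), 149 of 758 (HP), 175 of 783 (TH), 52 of 447 (HY), 78 of 438 (STR) and 335 of 1050 (FT), and aged counts 219 of 1228, 217 of 1303, 453 of 1518, 170 of 1337, 307 of 1591 and 1384 of 3030. Without P21 section 1 the P21 counts were 362 (CTX), 281 (HP), 472 (TH), 27 (HY) and 122 (STR), without P21 section 2 they were 482 (HP), 496 (TH) and 57 (HY), without adult section 1 they were 444 (HP) and 193 (HY), and without adult section 2 they were 314 (HP) and 257 (STR). Core spots gave 251 (HY) and 226 (STR), and DESeq2 241 (STR). Without adult section 1 the aged HP count was 851. The region-by-age counts, 1446 at P21 and 5551 in aged mice, became 767 and 2858 without the FT, 263 to 2771 at P21 when 1 section was left out and 3191 in aged mice without adult section 1. With library sizes alone, calls in the FT turned from 591 higher and 459 lower to 474 and 671 at P21, and from 1668 and 1362 to 1348 and 1717 in aged mice. There were 2 sections per age, and P21 section 2 was the shallowest. The part of depth in these counts was not tested.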
